A study of Mus musculus with 14 samples.

Results

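The genes of the motile cilium axoneme were followed in the cerebral cortex of mice with a blocked venous outflow of the brain. The members are the genes of the count table whose symbol begins with Dnah, Dnai, Dnali, Dnaaf, Cfap, Rsph, Drc, Odad, Spef or Tekt and a digit, which gave 86 of 55359 genes. The family was selected on a measured value, the low count of Dnah7b at 2 d. The comparison of 2 d with sham therefore describes the members and tests nothing. Dnah7b at 7 d is likewise only described, against 2 d and against sham, since the choice used both the 2 d and the sham samples. Cortex of both sides was taken from 5 mouse samples 7 d after cerebral venous sinus thrombosis (CVST, a clot in the large draining veins), from 5 samples 2 d after it, and from 4 sham samples. The labels give no strain, genotype, sex, age or sham collection day, and they number the samples without calling each a separate animal. The p-values therefore measure the spread between these samples, which may be technical.

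The axoneme is the microtubule core of a beating cilium: a ring of doublet microtubules around a central pair. Outer and inner dynein arms on the doublets pull neighbouring doublets past each other, radial spokes and the central apparatus time the arms, and the nexin-dynein regulatory complex links the doublets. Dynein arms are put together in the cytoplasm by assembly factors before they enter the cilium. In the brain such cilia stand on ependymal cells lining the ventricles and, in tufts, on choroid plexus epithelium, while most neurons and glia carry a single immotile cilium. In bulk tissue fewer cells of a type and less RNA per cell cannot be told apart.

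The promoters of many axoneme genes hold an X-box, an inverted repeat bound by RFX transcription factors. The repeat GTTGC, 3 to 5 bases of any kind and GCAAC was searched on both strands, on which it reads alike, in the RefSeq promoter windows of build GRCm38.p6 (250 bases before to 50 bases after each start). It was found for 10 of the 64 members with a window (15.6%), against 132 of 27025 genes with a window (0.488%). The 10 were Dnah6, Dnah7a, Dnah7b, Dnah7c, Cfap298, Cfap44, Cfap20dc, Rsph3b, Tekt2 and Tekt4. The windows of the 3 Dnah7 copies and of Cfap298 are shown because the results turn on these genes, with the match in capitals. They lie on chromosome 1 at chr1:53706735-53707034 (Dnah7a, minus strand), chr1:46066603-46066902 (Dnah7b, plus strand) and chr1:46425268-46425567 (Dnah7c, plus strand), and on chromosome 16 at chr16:90934800-90935099 (Cfap298, minus strand).
Dnah7a: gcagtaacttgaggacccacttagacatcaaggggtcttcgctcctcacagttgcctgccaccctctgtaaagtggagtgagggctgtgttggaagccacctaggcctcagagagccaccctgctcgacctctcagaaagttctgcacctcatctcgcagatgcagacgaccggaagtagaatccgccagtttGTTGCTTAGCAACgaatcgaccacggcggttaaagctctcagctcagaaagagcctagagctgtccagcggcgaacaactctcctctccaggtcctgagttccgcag
Dnah7b: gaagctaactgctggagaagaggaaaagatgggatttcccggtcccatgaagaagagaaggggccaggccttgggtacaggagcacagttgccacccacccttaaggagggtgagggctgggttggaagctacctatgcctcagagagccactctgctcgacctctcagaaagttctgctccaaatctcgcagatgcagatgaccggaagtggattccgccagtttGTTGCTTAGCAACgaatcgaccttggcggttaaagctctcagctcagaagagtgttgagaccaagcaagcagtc
Dnah7c: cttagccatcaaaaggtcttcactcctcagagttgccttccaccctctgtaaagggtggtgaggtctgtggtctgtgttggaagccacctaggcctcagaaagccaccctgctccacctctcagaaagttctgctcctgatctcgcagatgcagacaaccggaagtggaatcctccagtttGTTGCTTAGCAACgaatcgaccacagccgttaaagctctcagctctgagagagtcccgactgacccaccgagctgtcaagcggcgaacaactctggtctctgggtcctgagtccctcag
Cfap298: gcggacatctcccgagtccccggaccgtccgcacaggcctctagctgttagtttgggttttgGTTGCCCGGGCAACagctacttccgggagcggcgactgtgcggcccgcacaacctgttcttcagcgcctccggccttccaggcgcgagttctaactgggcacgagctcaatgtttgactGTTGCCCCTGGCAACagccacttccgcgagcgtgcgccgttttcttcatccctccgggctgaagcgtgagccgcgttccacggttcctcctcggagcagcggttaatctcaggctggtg
The 3 Dnah7 windows carried the same 13 letters, GTTGCTTAGCAAC, at 57 bases (Dnah7a), 24 bases (Dnah7b) and 69 bases (Dnah7c) before the start. Over the bases that aligned without gaps, the match included, the Dnah7b window was 75.1% identical to that of Dnah7a (265 bases) and 77% identical to that of Dnah7c (248 bases). The Dnah7a and Dnah7c windows were 89% identical to each other (281 bases). Cfap298 carried 2 matches. The windows of Dnah5 and Spef1, the other members called in a comparison, held no match.

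Gene counts summed to between 14.7 M and 20.8 M per sample, and the members took 0.0435% to 0.0555% of them. Between 78 and 83 members had at least 1 count in a sample. Of the 86 members, 67 passed the filter on low counts and were tested. Cfap97d1 and Dnaaf6b had 0 counts in every sample, and the other 17 untested members, among them Dnaaf1, Dnaaf6, Tekt3, Tekt4, Rsph6a and Dnai3, had 1 to 108 counts in all 14 samples together. Markers of excitatory cortical neurons, the labelled tissue, summed to 1352 to 2022 CPM at 7 d, 1505 to 2065 CPM at 2 d and 1356 to 1892 CPM in sham (CPM, counts scaled to a common library size with TMM factors), and 0 of 8 were called in any comparison. Within their groups, CVST 7 d sample 5 and CVST 2 d sample 5 lay farthest from the others, as a chi-square per degree of freedom over the counts of all genes. It was 34.6 to 52.3 in pairs with CVST 7 d sample 5, against 8.28 to 38.2 among the other 7 d samples, and 31.3 to 43.2 in pairs with CVST 2 d sample 5, against 13.2 to 30.5 among the other 2 d samples. Without CVST 2 d sample 5, 1967 genes were called between 2 d and sham, against 669 with it. Microglia and macrophage markers summed to 220 CPM in that sample, within the sham range of 205 to 239 CPM. They summed to 346 to 578 CPM in the other 2 d samples. Why this sample differed was not tested. Without CVST 7 d sample 5, 404 genes were called between 7 d and sham, against 752 with it, and the members called in either comparison of 7 d were the same.

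Levels between members were compared on the deposited FPKM scale, which divides by gene length and depth, averaged over 14 samples. The 3 Dnah7 copies were left out of this comparison for the reason given below the plot of levels. Of the other 83 members, the median lay at 0.721 FPKM, 32 reached 1 FPKM and 6 reached 10 FPKM. The 6 were Cfap36 (62.5 FPKM), which binds the small GTPase Arl3, Cfap20 (30.9 FPKM), a protein of the junction between the tubules of a doublet, Cfap298 (25.6 FPKM), a dynein arm assembly factor, the radial spoke genes Rsph3a (22.7 FPKM) and Rsph3b (17.5 FPKM), and Cfap410 (15.6 FPKM). None of the 6 encodes a dynein chain. The 7 other inner arm heavy chains had a median of 0.250 FPKM and the 5 outer arm heavy chains one of 0.313 FPKM. Both medians include chains of uncertain length, as given below the plot of levels. The 10 members with most counts held 61.3% of all member counts.

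**Figure D1:**
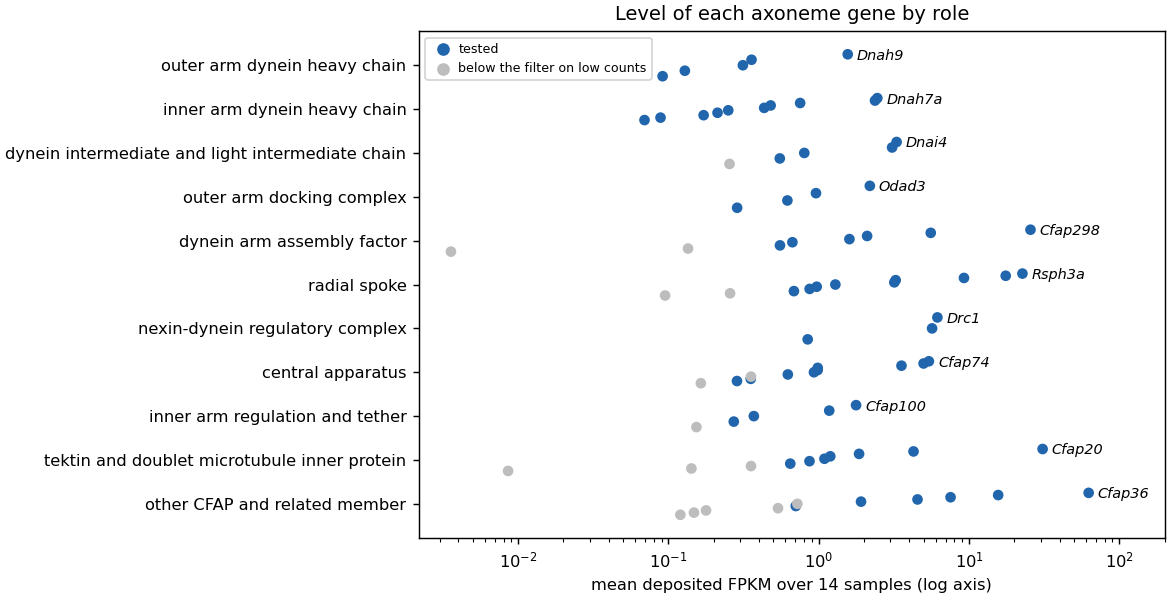
Mean deposited FPKM over 14 samples (horizontal axis, logarithmic) of each axoneme gene, 1 point a gene, in lines by role; blue points were tested and grey points fell below the filter on low counts. Cfap36, Cfap20, Cfap298 and Rsph3a lie above 20 FPKM. Dnah9, at 1.56 FPKM on an implied length of 4.17 kb, is drawn highest of the outer arm heavy chains. The 2 genes with 0 counts and the antisense transcript Dnah2os are not drawn.

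Some FPKM values rest on an uncertain length. Counts divided by FPKM imply a length of 15.4 kb for Dnah5, close to its annotated exons (15.6 kb in GENCODE M21), but 0.54 kb for Dnah7a, 4.38 kb for Dnah7b and 6.14 kb for Dnah7c, against annotated exons of 12.8 kb, 19.98 kb and 12.6 kb. The implied length of Dnah7b ran from 2.54 kb to 11.3 kb between samples. Some other heavy chains varied too, from 0.58 kb to 4.21 kb for Dnah8 and from 2.98 kb to 11.2 kb for Dnah10. Dnah6 varied less, from 11.9 kb to 12.5 kb. The FPKM of heavy chains, and their medians above, are therefore uncertain. The FPKM of the Dnah7 copies is drawn in the plot of levels but compared with nothing, and CPM and counts are given for them. Within a group, the coefficient of variation of a tested member had a median of 32.5% at 7 d, 28.9% at 2 d and 23.1% in sham. It reached 81.5% for Dnah3 at 7 d, 69.4% for Drc7 at 2 d and 87.0% for Drc7 in sham, and was lowest for Dnai4 at 7 d (4.25%).

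The summed level of all members was 445, 534, 479, 465 and 480 CPM in the 7 d samples, 501, 451, 482, 479 and 544 CPM in the 2 d samples and 471, 507, 523 and 563 CPM in sham. The 3 groups overlapped, with means of 481 ± 32.7 CPM at 7 d, 491 ± 34.3 CPM at 2 d and 516 ± 38.3 CPM in sham (SD, n = 5, 5 and 4). This sum mostly follows the members with most counts, of which Cfap36 alone averaged 86.6 CPM, and says little of members with few counts.

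Each member was tested with edgeR's quasi-likelihood test on the counts of all 14 samples, and was called at an adjusted p under 0.05 over the 16918 genes tested. In the comparison of 7 d with sham, 4.44% of all genes were called, 3.61% higher and 0.833% lower. None of the 67 members was called there, while 6 had an unadjusted p under 0.05 in edgeR, 2 higher and 4 lower. DESeq2 and limma voom with sample quality weights each called 1, Dnai4. Fold changes were negative for 42 of 67 members and the median was -0.09 on the log2 scale, against -0.01 over all genes tested.

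Set against 2 d, 3 of 67 members were called at 7 d, against a background of 2.8% of genes. Dnah7b was the 1 higher at 7 d (background 1.54%), from which nothing is read, since its 2 d values prompted the choice. Cfap298 and Spef1 were the 2 lower (background 1.25%). The median member fold change was 0.09 on the log2 scale (0.01 over all genes tested) and 40 members were positive. Without CVST 2 d sample 5 the count was 6, with Dnah5, Dnah7c and Dnai1 added as higher at 7 d. Fitting only the samples of 7 d and 2 d left 1, Dnah7b.

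Between 2 d and sham, 2 of 67 members were called, Dnah7b and Dnah5, both lower, against 3.95% of all genes tested in either direction, 2.98% higher and 0.969% lower. Nothing is read from this count, since the low level of Dnah7b at 2 d prompted the choice of members. The median fold change was -0.22 on the log2 scale (-0.01 over all genes tested), and 43 of 67 members were negative. The count moved with single samples: it was 6 without CVST 2 d sample 5, 1 (Dnah7b) without sham sample 3 or any 1 of CVST 2 d samples 1 to 4, and 0 without sham sample 2 or sham sample 4. Both comparisons with sham use the same 4 sham samples.

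Few members had groups that did not overlap at all. Every 7 d sample lay above every 2 d sample for 1 of 67 members, Dnah7b (background 2.28% of genes), from which nothing is read, and below for 2, Cfap298 and Spef1 (background 2.13%). Every 7 d sample lay below every sham sample for 3 members, Dnai4, Cfap298 and Cfap206 (background 3.87%), and above for 0 (background 5.8%). Every 2 d sample lay below every sham sample for 2 members, Dnah7b and Dnai4 (background 3.06%), and above for 0 (background 5.65%), from which nothing is read.

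**Figure D2:**
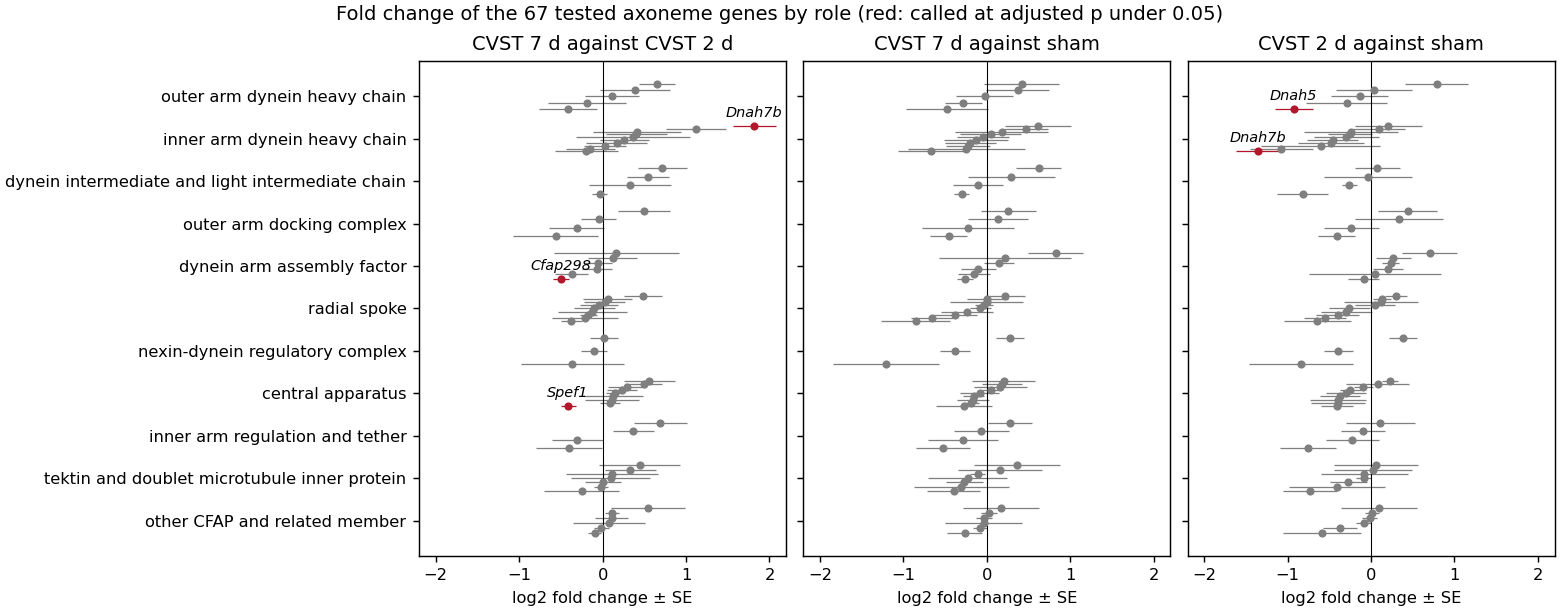
Log2 fold change with its standard error (horizontal axis) of the 67 tested members, 1 point a gene, in lines by role, in the 3 comparisons; red points were called at an adjusted p under 0.05. Dnah7b lies at 1.82 between 7 d and 2 d and at -1.35 between 2 d and sham, and no member is red between 7 d and sham.

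Dnah7 is a heavy chain, the motor subunit, of the inner dynein arm, and the mouse has 3 copies of it on chromosome 1. Dnah7b had 2.72, 4.43, 4.93, 7.14 and 5.30 CPM at 7 d, 1.10, 1.45, 1.18, 1.87 and 1.33 CPM at 2 d and 2.94, 3.82, 2.65 and 4.796 CPM in sham. Every 2 d sample lay below every 7 d sample and every sham sample, and the 7 d and sham samples overlapped. The counts behind these levels were 39 to 128 at 7 d, 18 to 34 at 2 d and 50 to 89 in sham. The log2 fold change between 7 d and 2 d was 1.82 ± 0.26 (SE, n = 5 and 5), and between 2 d and sham it was -1.35 ± 0.27 (SE, n = 5 and 4). Both are given as descriptions, since the 2 d values prompted the choice. The 7 d samples, which the choice did not use, differed from sham by a log2 fold change of 0.47 ± 0.26 (SE, edgeR adjusted p = 0.351, unadjusted p = 0.0951). The choice did use the sham samples, so this value is a description too.

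Dnah7c had 1.53, 1.08, 1.66, 1.79 and 1.94 CPM at 7 d, 0.383, 1.12, 0.589, 0.275 and 1.27 CPM at 2 d and 1.41, 1.21, 1.90 and 1.67 CPM in sham. Samples 1, 3 and 4 at 2 d lay below both other groups. Sample 2 at 2 d lay below every sham sample but reached into the 7 d samples, and sample 5 at 2 d reached into both groups. The log2 fold change between 7 d and 2 d was 1.12 ± 0.36 (SE, n = 5 and 5) and did not pass the test (edgeR adjusted p = 0.101). Without CVST 2 d sample 5 it did pass. Dnah7a had 0.558, 1.01, 2.18, 1.28 and 1.73 CPM at 7 d, 0.986, 1.12, 1.24, 1.54 and 1.158 CPM at 2 d and 0.647, 1.45, 1.35 and 2.48 CPM in sham. Its 3 groups overlapped, and its log2 fold change between 7 d and 2 d was 0.17 ± 0.37 (SE, edgeR adjusted p = 0.835). The sign for Dnah7a turned when CVST 7 d sample 3 was left out.

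**Figure D3:**
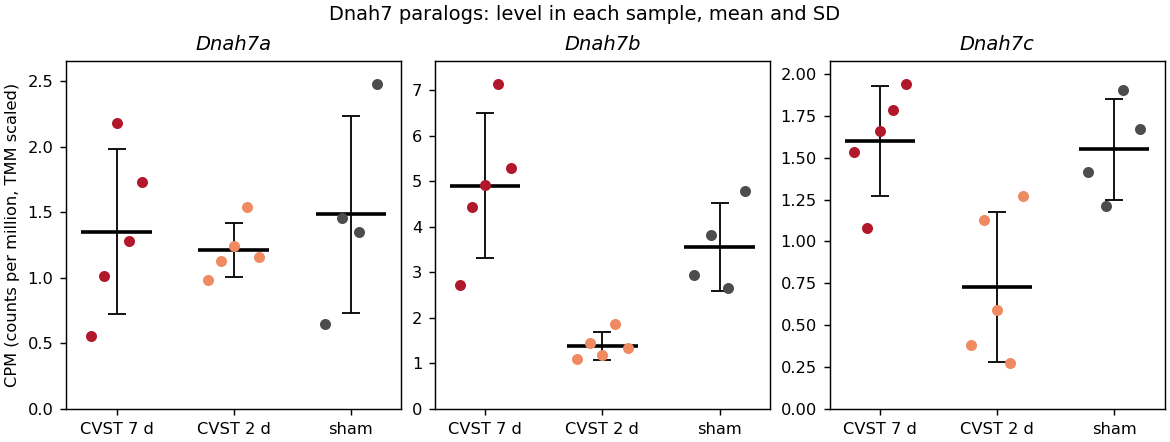
CPM (vertical axis, from 0) of the inner arm heavy chains Dnah7a, Dnah7b and Dnah7c in each sample; bars are the group mean and SD of 5 samples at 7 d, 5 at 2 d and 4 sham samples. All 2 d points of Dnah7b lie at or below 1.87 CPM and all its other points at or above 2.65 CPM, while the groups of Dnah7a overlap.

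Some reads may match more than 1 of the copies. For each copy 1 annotated transcript was compared (12314 bases for Dnah7b, 12245 for Dnah7a and 12207 for Dnah7c). These were 96.9% identical between Dnah7b and Dnah7a and 97.3% between Dnah7b and Dnah7c. Of all 100-base stretches of the Dnah7b transcript, 12.2% also stood in Dnah7a and 17.1% in Dnah7c. How the authors' counting placed reads that match more than 1 copy is not given in the sources used here, so each copy's value is uncertain. The 3 copies together had 4.81 to 10.2 CPM at 7 d, 2.46 to 3.76 CPM at 2 d and 5.0 to 8.95 CPM in sham, and the 2 d samples lay below all others. Dnah7b took 56.2% to 70.0% of the reads of the 3 copies at 7 d, 35.4% to 50.8% at 2 d and 44.9% to 58.9% in sham. Sums and shares both hold Dnah7b, whose 2 d values prompted the choice, so nothing is read from either. Dnah7b was also counted at a locus joined with an assembled transcript, unlike Dnah7a and Dnah7c.

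Of the other inner arm heavy chains none was called in any comparison. Dnah1, the inner arm chain with the highest CPM, had 8.14 ± 1.94 CPM at 7 d, 7.98 ± 2.87 CPM at 2 d and 9.51 ± 3.17 CPM in sham (SD, n = 5, 5 and 4). At 7 d it differed from sham by a log2 fold change of -0.22 ± 0.27 (SE, edgeR adjusted p = 0.695). All 10 inner arm chains were tested. Their median log2 fold change was 0.31 between 7 d and 2 d with 8 positive, Dnah7b among them. It was -0.09 between 7 d and sham with 4 positive, and -0.38 between 2 d and sham with 2 positive. The 10 hold Dnah7b, whose 2 d values prompted the choice, and its copies, which may share its reads. Nothing is therefore read from the medians that use 2 d.

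Dnah5 is a heavy chain of the outer dynein arm, and its loss causes primary ciliary dyskinesia in humans. It had 5.16, 5.89, 4.76, 5.36 and 4.82 CPM at 7 d, 2.24, 2.67, 3.01, 3.58 and 5.09 CPM at 2 d and 4.23, 6.72, 7.91 and 6.36 CPM in sham. Samples 1 to 4 at 2 d lay below all sham and all 7 d samples, and CVST 2 d sample 5 lay among them. Its log2 fold change between 7 d and 2 d was 0.65 ± 0.22 (SE, n = 5 and 5) and did not pass (edgeR adjusted p = 0.112), and without CVST 2 d sample 5 it did. Between 2 d and sham it was -0.93 ± 0.23 (SE, n = 5 and 4), given as a description. For 7 d against sham it was -0.28 ± 0.22 (SE, edgeR adjusted p = 0.527).

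Dnah9, the outer arm partner chain with the highest CPM, had 6.61 ± 3.34 CPM at 7 d, 6.12 ± 2.04 CPM at 2 d and 6.72 ± 1.82 CPM in sham (SD, n = 5, 5 and 4). Its log2 fold change between 7 d and 2 d was 0.11 ± 0.32 (SE, edgeR adjusted p = 0.878), less than the spread between samples. Dnah8, Dnah11 and Dnah17, at 0.478 to 1.13 CPM in the group means, were not called either.

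The intermediate chains hold a dynein arm to its doublet. Dnai4, of the inner arm, had 11.01, 11.9, 11.8, 11.3 and 12.3 CPM at 7 d, 12.0, 10.7, 11.5, 13.0 and 12.6 CPM at 2 d and 13.4, 15.6, 14.2 and 14.3 CPM in sham. Every sample of either CVST group lay below every sham sample. Its log2 fold change between 7 d and sham was -0.30 ± 0.09 (SE, n = 5 and 4), the lowest p among the members there, and it missed the threshold (edgeR adjusted p = 0.0738, range 0.0329 to 0.218 over the alternatives). Dnai1, an outer arm intermediate chain, had 2.58 ± 0.787 CPM at 7 d, 1.58 ± 0.707 CPM at 2 d and 2.79 ± 0.627 CPM in sham (SD, n = 5, 5 and 4). Its log2 fold change between 7 d and 2 d was 0.72 ± 0.29 (SE, edgeR adjusted p = 0.178), and it passed without CVST 2 d sample 5, in which it stood at 2.84 CPM against 1.20 to 1.37 CPM in the other 2 d samples.

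The docking complex anchors the outer arm to the doublet, and 0 of its 4 members were called in any comparison. Odad3 had 3.51 ± 0.870 CPM at 7 d, 3.62 ± 0.457 CPM at 2 d and 4.81 ± 1.26 CPM in sham (SD, n = 5, 5 and 4). Between 7 d and sham Odad3 differed by -0.46 ± 0.22 on the log2 scale (SE, edgeR adjusted p = 0.271). Odad1 had 2.37 ± 0.953 CPM at 7 d, 1.69 ± 0.646 CPM at 2 d and 1.99 ± 0.570 CPM in sham.

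Cfap298, which is needed to assemble dynein arms, fell at 7 d relative to 2 d. It had 23.6, 22.9, 22.3, 20.4 and 19.8 CPM at 7 d, 36.8, 27.6, 30.4, 31.4 and 27.4 CPM at 2 d and 24.1, 24.8, 26.7 and 29.0 CPM in sham. The 7 d samples lay below every sample of both other groups, and the 2 d and sham samples overlapped. The log2 fold change between 7 d and 2 d was -0.50 ± 0.09 (SE, n = 5 and 5, edgeR adjusted p = 0.0165, range 0.000134 to 0.0530 over the alternatives), and the call was lost when only the samples of 7 d and 2 d were fitted (0.0530). Against sham the log2 fold change at 7 d was -0.26 ± 0.10 (SE, edgeR adjusted p = 0.154), and between 2 d and sham it was 0.23 ± 0.10 (SE). Cfap298 shares 703 exonic bases with Gm49727 and 148 with 4930534H18Rik on the opposite strand, and strand use in counting is not given in the sources used here. Gm49727 had 2 to 13 counts and 4930534H18Rik 0 to 4 counts a sample.

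The other assembly factors were not called. Cfap300 had 11.5 ± 2.10 CPM at 7 d, 12.1 ± 3.29 CPM at 2 d and 12.8 ± 1.90 CPM in sham (SD, n = 5, 5 and 4). Dnaaf3, named after its values were seen as the largest positive fold change at 7 d, had 1.27 ± 0.488 CPM at 7 d, 1.18 ± 0.247 CPM at 2 d and 0.723 ± 0.234 CPM in sham. Dnaaf3 at 7 d differed from sham by a log2 fold change of 0.82 ± 0.33 (SE, edgeR adjusted p = 0.176). Of the 6 assembly factors tested, 5 had a positive fold change between 2 d and sham (median 0.22) and 3 between 7 d and sham (median 0.02).

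Radial spokes pass signals from the central pair to the dynein arms, and 0 of 9 tested members were called in any comparison. Rsph3b had 22.4 ± 2.56 CPM at 7 d, 25.2 ± 3.53 CPM at 2 d and 23.0 ± 1.38 CPM in sham (SD, n = 5, 5 and 4). Its sister copy Rsph3a had 15.4 ± 1.46 CPM at 7 d, 19.9 ± 3.60 CPM at 2 d and 16.2 ± 1.90 CPM in sham. The log2 fold change of Rsph3a between 7 d and 2 d was -0.38 ± 0.12 (SE, edgeR adjusted p = 0.109), and reads of the 2 copies may be shared. Cfap206, a protein at the base of a spoke, had 1.20 ± 0.162 CPM at 7 d, 1.30 ± 0.348 CPM at 2 d and 1.90 ± 0.596 CPM in sham. Its 7 d samples (0.950 to 1.37 CPM) all lay below its sham samples (1.41 to 2.75 CPM), with a log2 fold change of -0.65 ± 0.25 (SE, edgeR adjusted p = 0.165).

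The 3 members of the nexin-dynein regulatory complex were not called either. Drc1, a scaffold of the complex, had 11.8 ± 1.85 CPM at 7 d, 11.7 ± 2.57 CPM at 2 d and 15.3 ± 3.04 CPM in sham (SD, n = 5, 5 and 4), and 7 d differed from sham by -0.38 ± 0.18 on the log2 scale (SE, edgeR adjusted p = 0.250). Drc3 had 16.1 ± 3.55 CPM at 7 d, 17.3 ± 3.85 CPM at 2 d and 13.2 ± 0.608 CPM in sham, a log2 fold change of 0.28 ± 0.17 (SE, edgeR adjusted p = 0.396). Drc1 and Drc3 thus had opposite signs at 7 d, and neither passed the test. Drc7, with the most negative member fold change at 7 d, -1.21 ± 0.63 (SE, edgeR adjusted p = 0.317), stood at 6.63 CPM in sham sample 4 against 1.29 to 2.42 CPM in the other sham samples, and was named after its values were seen.

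Spef1 bundles microtubules and is needed for the central pair. It fell at 7 d relative to 2 d, with 21.3, 19.96, 20.3, 18.3 and 20.3 CPM at 7 d, 27.8, 27.7, 29.4, 24.8 and 23.7 CPM at 2 d and 26.5, 20.3, 21.1 and 23.5 CPM in sham. The 7 d samples lay below all 2 d samples, and sham overlapped both. The log2 fold change between 7 d and 2 d was -0.41 ± 0.09 (SE, n = 5 and 5, edgeR adjusted p = 0.0285, range 0.00115 to 0.0778 over the alternatives). The call was lost without CVST 2 d sample 1 (adjusted p = 0.0730), CVST 2 d sample 3 (0.0665), CVST 7 d sample 3 (0.0562) or CVST 7 d sample 4 (0.0778), and when only the samples of 7 d and 2 d were fitted (0.0533). Against sham the log2 fold change at 7 d was -0.19 ± 0.09 (SE, edgeR adjusted p = 0.286).

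The Spef1 count may hold reads of its neighbours. Counts and FPKM imply a length of 6.72 kb for it, against 2.75 kb of annotated exons in GENCODE M21, and it was counted at a locus joined with an assembled transcript. Its exons share 20 bases with Cenpb on the same strand and 92 bases with Cdc25b on the opposite strand. Cenpb had 126 ± 10.9 CPM at 7 d, 137 ± 19.9 CPM at 2 d and 124 ± 17.6 CPM in sham (SD, n = 5, 5 and 4), and Cdc25b 13.5 ± 1.25 CPM at 7 d, 11.1 ± 1.98 CPM at 2 d and 11.4 ± 2.99 CPM in sham. Their log2 fold changes between 7 d and 2 d were -0.13 ± 0.11 for Cenpb and 0.28 ± 0.17 for Cdc25b (SE, edgeR adjusted p = 0.536 and 0.348). The part of these genes in the Spef1 result was not tested. Joined loci made up 16 of the 67 tested members (23.9%) and 44.2% of all genes tested. Over all genes, 2.73% of joined loci and 2.85% of the others were called between 7 d and 2 d, 3.46% and 5.23% between 7 d and sham, and 2.9% and 4.79% between 2 d and sham. Of the members called in a comparison, Dnah7b, Cfap298 and Spef1 were joined loci and Dnah5 was not.

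**Figure D4:**
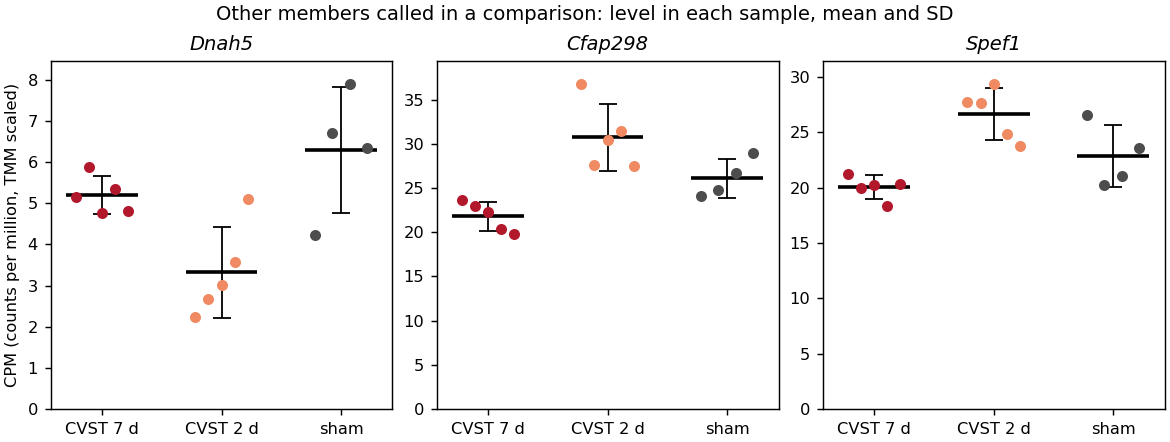
CPM (vertical axis, from 0) of Dnah5, Cfap298 and Spef1 in each sample; bars are the group mean and SD of 5 samples at 7 d, 5 at 2 d and 4 sham samples. The 7 d points of Cfap298 end at 23.6 CPM, below every other point, those of Spef1 end at 21.3 CPM, below every 2 d point, and Dnah5 at 2 d reaches 5.09 CPM in sample 5 only.

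Of the other central apparatus genes none was called. Cfap69 had 17.7 ± 2.29 CPM at 7 d, 16.6 ± 2.52 CPM at 2 d and 19.7 ± 1.75 CPM in sham (SD, n = 5, 5 and 4), and 7 d differed from sham by -0.16 ± 0.13 on the log2 scale (SE, edgeR adjusted p = 0.525). Of 9 tested members of the apparatus, 8 had a positive fold change between 7 d and 2 d (median 0.15), Spef1 being the exception.

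Cfap43 and Cfap44 tether inner arms to the doublet and Cfap100 regulates them. Cfap44 had 3.32 ± 1.09 CPM at 7 d, 2.06 ± 0.992 CPM at 2 d and 3.48 ± 0.372 CPM in sham (SD, n = 5, 5 and 4), and its log2 fold change between 7 d and 2 d was 0.69 ± 0.32 (SE, edgeR adjusted p = 0.228). Cfap43 had 1.21 ± 0.562 CPM at 7 d, 1.50 ± 0.355 CPM at 2 d and 1.76 ± 0.326 CPM in sham, with -0.53 ± 0.32 between 7 d and sham (SE, edgeR adjusted p = 0.393). Cfap100 had 2.65 ± 0.945 CPM at 7 d, 2.06 ± 0.366 CPM at 2 d and 2.19 ± 0.617 CPM in sham.

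Tektins and other inner proteins stiffen the doublet wall, and 0 of 7 tested were called. Cfap20 had 33.7 ± 1.86 CPM at 7 d, 34.2 ± 3.21 CPM at 2 d and 36.3 ± 3.97 CPM in sham (SD, n = 5, 5 and 4). Its 7 d level differed from sham by -0.11 ± 0.09 on the log2 scale (SE, edgeR adjusted p = 0.534). Tekt5, a tektin known from sperm flagella, had 6.34 ± 2.99 CPM at 7 d, 5.06 ± 1.98 CPM at 2 d and 8.37 ± 1.58 CPM in sham. Its log2 fold change between 7 d and sham was -0.40 ± 0.32 (SE, edgeR adjusted p = 0.530), within the spread between samples.

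The remaining Cfap genes include the member of highest level. Cfap36 had 83.1 ± 10.5 CPM at 7 d, 88.8 ± 5.57 CPM at 2 d and 88.1 ± 4.30 CPM in sham (SD, n = 5, 5 and 4), and 7 d differed from sham by -0.09 ± 0.09 on the log2 scale (SE, edgeR adjusted p = 0.633). Cfap97 had 33.5 ± 3.35 CPM at 7 d, 30.9 ± 1.96 CPM at 2 d and 32.9 ± 3.53 CPM in sham, with 0.03 ± 0.09 (SE, edgeR adjusted p = 0.908). Cfap20dc had 10.7 ± 2.19 CPM at 7 d, 9.92 ± 2.93 CPM at 2 d and 12.8 ± 1.90 CPM in sham, with -0.27 ± 0.21 (SE, edgeR adjusted p = 0.522). Of 6 tested genes of this group none was called in any comparison, and Dnah2os, an antisense transcript of the Dnah2 gene, stayed below the filter with 31 counts in all.

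Genes that work with the members were followed as lists. Of 51 tested genes of other motile cilium parts, 0 were called in any of the 3 comparisons by edgeR, with 3 higher at an unadjusted p under 0.05 between 7 d and 2 d, 1 higher and 2 lower between 7 d and sham, and 3 higher and 5 lower between 2 d and sham. Their median log2 fold changes were 0.01, -0.02 and -0.06 in that order of comparisons. The 2 with the highest CPM, the dynein light chains Dnal1 and Dnal4, had 122 ± 14.04 and 25.4 ± 3.62 CPM at 7 d, 116 ± 21.9 and 29.4 ± 3.51 CPM at 2 d and 135 ± 13.8 and 31.3 ± 3.84 CPM in sham (SD, n = 5, 5 and 4).

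Intraflagellar transport and BBSome genes, which carry cargo in motile and immotile cilia alike, were all tested. None of the 32 was called by edgeR in any comparison, with 3 higher at an unadjusted p under 0.05 between 7 d and 2 d and 1 higher and 2 lower in each comparison with sham. The kinesin subunits Kifap3 and Kif3a had 308 ± 48.3 and 193 ± 28.5 CPM at 7 d, 294 ± 16.8 and 182 ± 17.7 CPM at 2 d and 336 ± 18.8 and 206 ± 21.6 CPM in sham (SD, n = 5, 5 and 4). Of 7 tested regulators of multiciliation, 0 were called and 0 had an unadjusted p under 0.05 in any comparison. Foxj1, the master transcription factor of motile cilia, had 4.21 ± 2.75 CPM at 7 d, 4.29 ± 1.06 CPM at 2 d and 4.54 ± 2.10 CPM in sham. Rfx3, an RFX factor that binds the X-box, had 55.4 ± 15.4 CPM at 7 d, 49.3 ± 18.4 CPM at 2 d and 63.4 ± 13.3 CPM in sham. DESeq2 and voom calls were not computed for these lists.

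Markers of the ciliated cells were read in the same samples. Of 12 ependymal markers 11 were tested, and 1 was called, Tm4sf1, higher at 2 d than in sham and lower at 7 d than at 2 d. Tm4sf1, a gene also known from endothelium, had 12.4 ± 2.70 CPM at 7 d, 45.7 ± 23.2 CPM at 2 d and 9.60 ± 0.566 CPM in sham (SD, n = 5, 5 and 4). It stood at 12.2 CPM in CVST 2 d sample 5 and at 34.2 to 70.6 CPM in the other 2 d samples. The other 11 markers together summed to 9.55 to 24.1 CPM at 7 d, 15.3 to 17.2 CPM at 2 d and 12.8 to 21.3 CPM in sham. This sum without Tm4sf1 was chosen after its values were seen, and the part of ependymal cells in the member values was not tested. Tmem212 was at 0 in 1 sample at 7 d, and no other ependymal marker was at 0 in any sample.

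Choroid plexus markers varied widely within every group. The 14 markers summed to 179 to 455 CPM at 7 d, 179 to 809 CPM at 2 d and 148 to 1349 CPM in sham, and 0 of 14 were called in any comparison by edgeR, although 7 were lower at 7 d than in sham at an unadjusted p under 0.05. Slc4a5 and Otx2 were at 0 in CVST 2 d sample 3 and sham sample 3, and Calml4 in CVST 7 d sample 1. Ttr, the thyroid hormone carrier that plexus epithelium makes in bulk, had 6.83, 2.41, 15.2, 104 and 4.41 CPM at 7 d, 409, 1.64, 3.34, 446 and 60.3 CPM at 2 d and 44.9, 252, 3.55 and 793 CPM in sham. Dnah7b had 1.10 and 1.87 CPM in the 2 d samples with the highest Ttr (samples 1 and 4) and 1.45 and 1.18 CPM in those with the lowest (samples 2 and 3). These 2 d values of Dnah7b prompted the choice, so nothing is read from them. Over deviations from the group means, Dnah7b had an r of 0.50 with Ttr (permutation test, adjusted p = 0.382). Striatal neuron markers, a sign of tissue below the cortex, summed to 274 to 1502 CPM at 7 d, 258 to 1354 CPM at 2 d and 279 to 1792 CPM in sham, with 0 of 10 called. The 1354 CPM were in CVST 2 d sample 5, against 258 to 566 CPM in the other 2 d samples. Against sham, 10 of 10 striatal markers had negative fold changes at either time, with log2 medians of -0.89 at 7 d and -0.97 at 2 d. Of the 14 choroid plexus markers, 13 were negative against sham at either time, with medians of -2.05 at 7 d and -0.61 at 2 d. Between 7 d and 2 d, 5 striatal and 13 choroid plexus markers were negative. The part of choroid plexus and striatal tissue in the member values was not tested.

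Markers of other cell types did move. Of 8 microglia and macrophage markers, 6 rose at 7 d relative to sham, 1 (P2ry12) at 7 d relative to 2 d and 1 (C1qa) at 2 d relative to sham. They summed to 279 to 2474 CPM at 7 d, 220 to 578 CPM at 2 d and 205 to 239 CPM in sham. Of 7 astrocyte markers, 3 rose at 7 d relative to 2 d (Gja1, Slc1a2 and Slc1a3), 2 at 7 d relative to sham (Gfap and Aqp4) and 2 at 2 d relative to sham (Gfap and Aldh1l1), and they summed to 4236 to 7830 CPM at 7 d, 3963 to 4653 CPM at 2 d and 3306 to 4118 CPM in sham. Of 8 subventricular neuroblast and radial glia markers, 1 rose and 1 fell at 7 d in either comparison and 2 rose at 2 d. Of 7 endothelial and mural markers, 1 fell at 7 d relative to 2 d and 2 rose at 2 d relative to sham. At 7 d relative to sham 2 of 8 leptomeningeal fibroblast markers rose, and relative to 2 d 1 of 6 oligodendrocyte markers and 1 of 8 thalamic neuron markers rose. None of 6 inhibitory neuron markers or 8 dentate and hippocampal markers was called in any comparison by edgeR, with 1 inhibitory marker lower in each and 0 dentate and hippocampal markers at an unadjusted p under 0.05. The part of these cell types in the member values was not tested.

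Within groups, members were also set against Foxj1 and Ttr. Deviations of log2 CPM from the group means were correlated over the 14 samples for 67 members and both genes, 134 relations in all. None passed a permutation test after Benjamini-Hochberg adjustment, by Pearson's r (lowest adjusted p = 0.161) or by Spearman's rho (lowest adjusted p = 0.279). With Foxj1 the median r was 0.05, from -0.71 (Rsph3b) to 0.78 (Dnaaf3), with 34 members positive and 33 negative. With Ttr the median r was 0.11, from -0.47 (Rsph10b) to 0.85 (Drc7), with 42 positive and 25 negative. The r of Dnah7b with Foxj1 was 0.61 (permutation test, adjusted p = 0.382).

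Single samples weighed on many members at once. CVST 7 d sample 1 held the lowest value over all 14 samples for 13 members and the highest for none. Its tested members had a mean deviation of -0.40 on the log2 scale from their means over all 14 samples. Differences between groups therefore enter these deviations. Sham sample 4 and CVST 7 d sample 4 each held the highest value of 13 members, with mean deviations of 0.27 and 0.23, and CVST 7 d sample 4 also held the lowest of 8, against 1 for sham sample 4. Dnah7b in CVST 7 d sample 1, at 2.72 CPM, was the lowest of the 7 d samples and still above all 2 d samples.

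**Figure D5:**
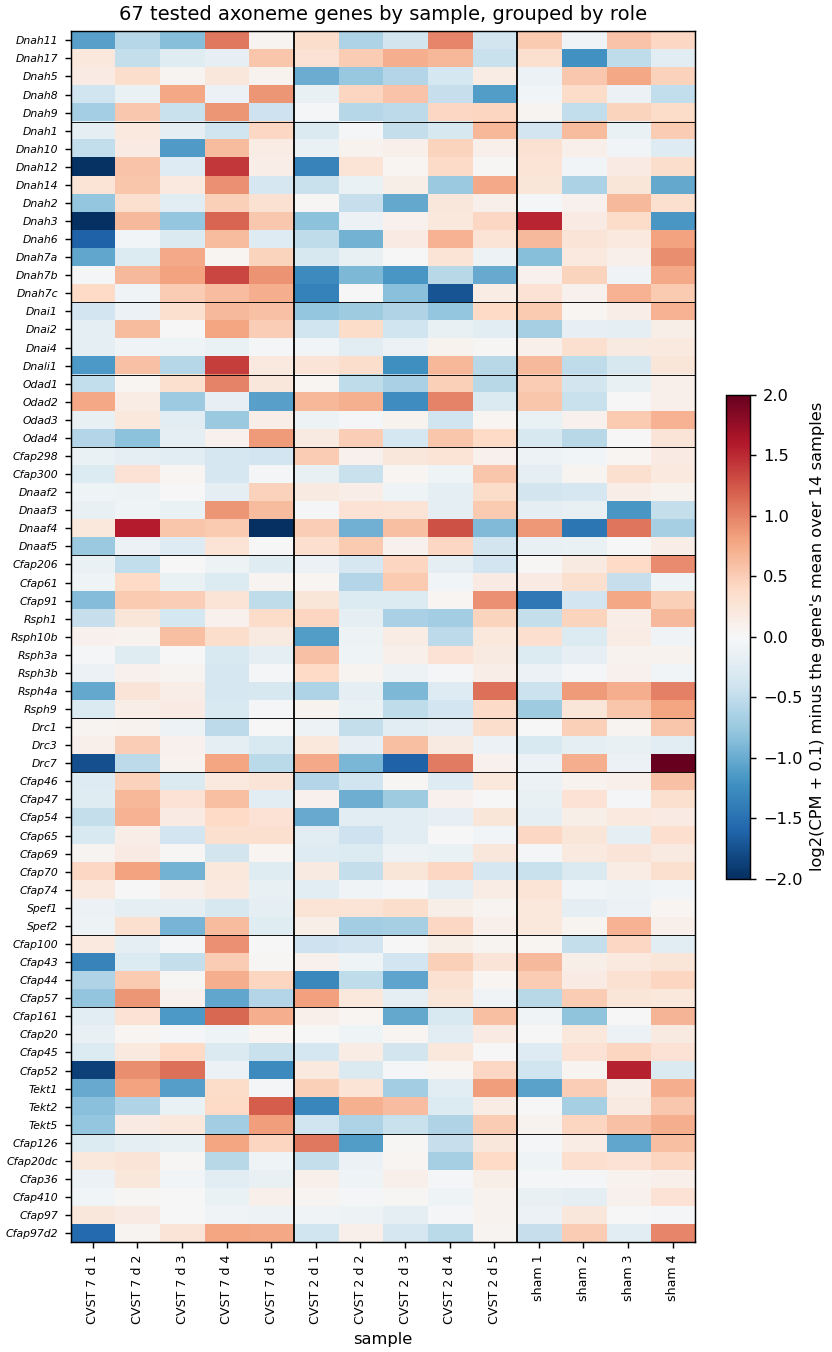
Log2(CPM + 0.1) minus the gene's mean over 14 samples (colour, blue low and red high, limited to 2 either way) for the 67 tested members, in blocks by role, with samples of 7 d, 2 d and sham from left to right. Dnah7b is blue in all 5 samples at 2 d, Dnah5 in the first 4 of them, and CVST 7 d sample 1 is blue for many members of different roles.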

How the data were processed

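RNA of mouse cerebral cortex was sequenced in 14 samples, grouped by their labels as CVST 7 d (5), CVST 2 d (5) and sham (4). The labels name Trizol for extraction and a NEBNext Ultra kit for the libraries. Per the submitters' processing notes, fastp, HISAT2, DESeq2 1.16.1 and build mm39 were used. Versions of fastp and HISAT2, the counter, annotation and strand use: not given in the sources used here. Whole-number read counts per gene and FPKM values were what the authors deposited; counts were tested, and the deposited FPKM served only to compare levels between genes. Of 55894 entries, 535 without an Ensembl gene (0.203% to 0.278% of a sample's counts) were left out. The totals of 14.7 M to 20.8 M counts per sample limit the precision of members with few counts.

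One edgeR model (edgeR 4.0.16, R 4.3.3) with a mean per group held all samples, after filterByExpr and TMM, and members were tested with the 2-sided quasi-likelihood test with Benjamini-Hochberg adjustment over 16918 genes; the biological coefficient of variation was 0.218. The code was tested on simulated counts. The standard error is the log2 fold change divided by the root of F. Correlations used 100000 permutations, 2-sided. Alternatives were DESeq2 1.42.0 (size factors; Wald test), limma 3.58.1 voom with sample weights, no filter, fits of 2 groups, a replicate block, and leaving samples out. Named members are the Dnah7 copies, every member called in a comparison, and in each role the 2 of highest CPM and the lowest p at 7 d against sham. Of each pathway list, genes called and the 2 of highest CPM are named; by the same rule the marker lists would name more genes, and only some called genes, Foxj1, Ttr and genes at 0 are named, for brevity. The members and lists were chosen with earlier results of these data known. Promoter sequences are from RefSeq (GRCm38.p6) and transcripts and exons from GENCODE M21, also of GRCm38; these coordinates are not those of the deposited files, which use mm39.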

Additional observations from a re-analysis of the deposited data

Results flagged for a closer look

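In 108 groups of 4 or 5 samples (levels of the named members, of Foxj1 and Ttr, and summed lists), 8 held a sample far from the others by Dixon's test, where chance gives about 1 in 20. Of the 8, 4 were levels of members. Dnai1 stood at 2.84 CPM and Tekt5 at 8.57 CPM in CVST 2 d sample 5, against at most 1.37 and 4.54 CPM in the other 2 d samples. Cfap206 reached 1.9 CPM in CVST 2 d sample 3 and Cfap100 4.3 CPM in CVST 7 d sample 4. In CVST 7 d sample 4 Ttr stood at 104 CPM and the summed choroid plexus markers at 455 CPM. The other motile cilium genes summed to 418 CPM in CVST 2 d sample 5, and intraflagellar transport and BBSome genes to 1315 CPM in sham sample 1, the lowest of its group.

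The difference between the times passed the test for Cfap298, with a log2 fold change of -0.50 between 7 d and 2 d, and for Spef1, with -0.41. For Dnah7b it was 1.82, given as a description, since its 2 d values prompted the choice of members.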

How the results depend on the processing

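Leaving out 1 sample at a time moved the count of members called from 0 to 6 between 2 d and sham (2 with all samples), from 2 to 6 between 7 d and 2 d (3 with all samples), and not at all between 7 d and sham (0 to 0). Between 2 d and sham, fitting only those groups gave 1, voom with sample weights 12, and leaving out CVST 2 d sample 5 and CVST 7 d sample 2 together, a pair chosen with earlier results known, 5. Between 7 d and sham, the DESeq2 Wald test and voom each gave 1. Between 7 d and 2 d, fitting only those groups gave 1, voom 5, and both samples left out 6. The cause was not tested. Over all genes the same settings moved the counts as well: 669 calls between 2 d and sham became 2616 with voom, 1967 without CVST 2 d sample 5 and 76 without sham sample 3.

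Replicate numbers did not pair the samples: of 13 pairs of the same number, 2 had a correlation of deviations over 0.1 (range -0.44 to 0.28). With the replicate block the count was 2 between 2 d and sham, 0 between 7 d and sham and 1 between 7 d and 2 d, where Cfap298 (adjusted p = 0.0529) and Spef1 (0.0730) were no longer called.

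Of 406 values of single members under an alternative, 366 kept direction and side of the threshold, 13 newly passed, 19 no longer passed and 8 changed sign. The 8 were all of members that were not called. Leaving out 1 sample, the log2 fold change of Dnah7a ran from -0.53 to 0.069 between 2 d and sham (positive without sham sample 4), from -0.36 to 0.24 between 7 d and sham (positive without sham sample 4 or CVST 7 d sample 1) and from -0.0634 to 0.36 between 7 d and 2 d (negative without CVST 7 d sample 3). Dnah7c between 7 d and sham gave -0.10 with the replicate block and -0.028 with voom, and ran from -0.0476 to 0.17 with 1 sample left out (negative without sham sample 2 or CVST 7 d sample 5).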
